A study of Mus musculus with 6 samples.

Results

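Stressed cells that stop dividing for good, called senescent cells, release a mixture of cytokines, chemokines, growth-factor-binding proteins and matrix proteases known as the senescence-associated secretory phenotype (SASP). These factors recruit immune cells, remodel the matrix and act on neighbouring cells, and their genes are switched on largely through NF-κB, AP-1 and C/EBPβ. Acetylation of histone H3 at lysine 27 (H3K27ac) marks promoters and enhancers in use, and was mapped here by chromatin immunoprecipitation and sequencing (ChIP-seq). The 49 genes described below are a named list of secreted SASP factors and a few surface receptors, out of 21938 protein-coding genes. They comprise 5 interleukins, 13 chemokines, 6 growth factors, 6 insulin-like growth factor (IGF)-binding proteins, 12 proteases and their inhibitors, 5 receptors and adhesion molecules and 2 matrix proteins. Genes entered the list by name, and the rule used no measured value, but the list was chosen with earlier results of these data known.

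The libraries came from whole retina of wild-type (WT) mice that were 3 months old at the 1st pressure elevation. In the 3 samples labelled 4xIOP the intraocular pressure (IOP) of an eye was held at 30 mmHg for 1 h on 4 occasions, once in every fortnight, and the retina was taken on day 2 after the 4th elevation. The 3 control samples were untreated contralateral eyes, taken at the same time. The treatment text shared by the whole series speaks of dasatinib and vehicle injections, and the labels of these samples do not say whether any mouse received one. The question was whether repeated mild pressure stress leaves acetylation at SASP genes.

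A promoter was taken as 2.5 kb on either side of any annotated transcription start site (TSS) of a gene, a locus as the gene body with 20 kb on either side, and a promoter was called marked in a list if a peak overlapped it by 1 bp or more. The mm10 (GRCm38) coordinates of the peaks were used throughout. The lists held 19913 to 36509 peaks in the control group and 16195 to 20804 in the 4xIOP group, with control 3 the longest. The names written inside the lists disagreed with the labels for 4 of 6 samples: control 1 and control 2 carried the name of the pressure group, and 4xIOP 1 and 4xIOP 2 the name of the control group. Groups were formed from the labels alone, so each direction below holds for the groups as labelled, and results were also taken over control 3 and 4xIOP 3, where name and label agreed. Shortest peaks of 220 to 232 bp in control 1, 4xIOP 1 and 4xIOP 2 and of 187 to 195 bp in the other lists divided the libraries into a longer and a shorter class of fragment length that crossed the groups. Among promoter markers of retinal cells, 5 of 6 rod genes were marked in all 6 lists and the remaining one, Crx, in 5. Of 6 Müller glia genes 1 (Glul) was marked in all lists and Rlbp1, Aqp4 and Vim in none, and of 5 retinal ganglion cell genes 0 were marked in all lists and Pou4f1, Nefl and Sncg in none. The microglial markers Cx3cr1, P2ry12, Tmem119, Aif1, C1qa, C1qb, Ctss, Trem2 and Itgam were unmarked in every list, and all 5 markers of monocytes and neutrophils were unmarked. In whole retina, acetylation in few cells and low acetylation in many cells cannot be told apart.

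Most SASP promoters carried no H3K27ac peak in the retina of either group. A promoter peak was found in at least 1 list for 13 of 49 members (26.5%), against 57.6% of all protein-coding genes. Only 4 members (8.16%) were marked in all 6 lists, namely Il18, Csf1, Timp2 and Angptl4, whereas 39.5% of protein-coding genes were. Cxcl16 was marked in 4 lists, Igfbp2, Serpine2 and Mmp14 in 2, and Igfbp4, Igfbp7, Plau, Plat and Tnfrsf1b in 1. The other 36 members (73.5%) were unmarked in every list, against 42.4% of protein-coding genes. These shares describe a list chosen by name and were given no test.

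**Figure D1:**
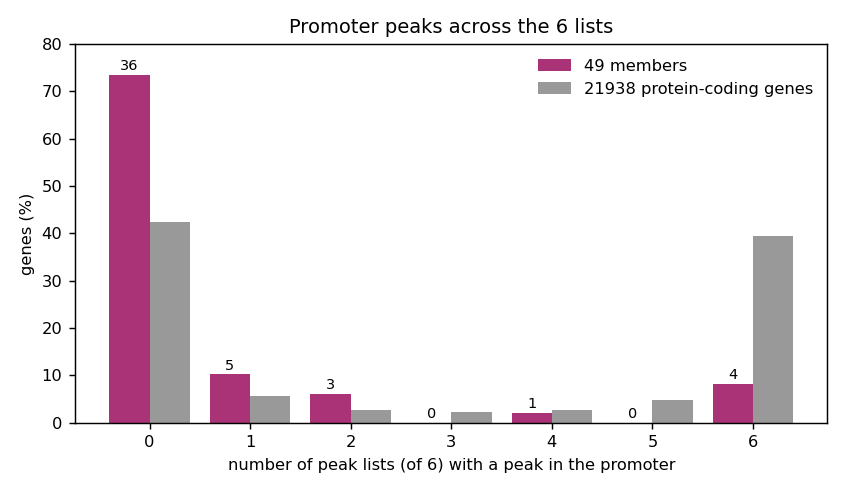
Share of genes (y axis, percent) whose promoter held a peak in a given number of the 6 lists (x axis), for the 49 members and for all 21938 protein-coding genes; numbers above the bars count members. The members pile up at 0 lists (36 genes), whereas protein-coding genes divide mainly between 0 lists (42.4%) and 6 lists (39.5%).

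A few upstream sequences, which differed in base composition, are shown so that the peaks can be read against them. CpG dinucleotides, the sites of DNA methylation in mammals, are dense in many promoters that are active across tissues. Each sequence is the 250 bases before a RefSeq start on GRCm38, written 5′ to 3′ on the strand of the gene, with CpG in capitals. Csf1 (chr3:107760470-107760719, minus strand) and Il18 (chr9:50554450-50554699, plus strand) stand for promoters marked in all 6 lists, and Serpine2 (chr1:79858666-79858915, minus strand) and Igfbp2 (chr1:72824230-72824479, plus strand) for promoters marked in 2. Il6 (chr5:30012864-30013113, plus strand) stands for an unmarked one and was picked after its values were seen.
Csf1: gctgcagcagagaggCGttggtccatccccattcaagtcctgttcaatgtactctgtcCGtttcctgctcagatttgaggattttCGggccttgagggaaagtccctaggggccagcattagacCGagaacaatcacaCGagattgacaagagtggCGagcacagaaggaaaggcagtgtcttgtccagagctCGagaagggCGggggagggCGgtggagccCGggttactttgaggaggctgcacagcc
Il18: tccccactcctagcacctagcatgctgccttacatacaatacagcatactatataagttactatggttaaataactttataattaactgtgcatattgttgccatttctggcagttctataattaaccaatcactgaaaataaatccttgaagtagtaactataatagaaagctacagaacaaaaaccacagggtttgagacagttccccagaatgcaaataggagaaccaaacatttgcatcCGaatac
Serpine2: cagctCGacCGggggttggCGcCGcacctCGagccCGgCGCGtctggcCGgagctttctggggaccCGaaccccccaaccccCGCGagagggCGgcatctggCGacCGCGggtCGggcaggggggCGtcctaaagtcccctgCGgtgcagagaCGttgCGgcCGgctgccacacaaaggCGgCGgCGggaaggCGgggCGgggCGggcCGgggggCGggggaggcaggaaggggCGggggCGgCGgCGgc
Igfbp2: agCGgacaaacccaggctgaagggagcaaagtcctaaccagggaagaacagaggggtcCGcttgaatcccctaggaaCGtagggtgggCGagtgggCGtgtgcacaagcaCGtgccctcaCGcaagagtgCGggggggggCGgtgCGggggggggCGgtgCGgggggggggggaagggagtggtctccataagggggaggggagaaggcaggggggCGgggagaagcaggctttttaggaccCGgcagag
Il6: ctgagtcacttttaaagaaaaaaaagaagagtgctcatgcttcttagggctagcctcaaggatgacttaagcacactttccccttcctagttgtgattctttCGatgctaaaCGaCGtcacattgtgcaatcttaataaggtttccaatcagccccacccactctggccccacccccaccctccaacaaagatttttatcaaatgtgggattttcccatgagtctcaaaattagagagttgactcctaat
The Serpine2 stretch held 34 CpG, the Igfbp2 stretch 14, the Csf1 stretch 10, the Il6 stretch 3 and the Il18 stretch 1. Csf1 and Il18, both marked in every list, had 56.4% and 35.6% of G and C in these stretches. The peak region at Il18 also covered the promoter of another gene, Bco2. The peaks themselves reached into the printed stretch in 5 of 6 lists for Csf1 and for Il18, in 1 list for Serpine2 and in none for Igfbp2, whose peaks began downstream of the start.

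Short motifs of the factors that drive the SASP were looked up on both strands between 250 bases before and 50 bases after the start. The Il6 window held NF-κB letters (GGGANNTTC) from base -44, C/EBP letters (TTGCNNAA) from base -128 on the opposite strand and AP-1 letters (TGANTCA) from base -249, although its promoter was unmarked in every list. The Csf1 window held the NF-κB letters from base -153, and the Il18 window the TATA box letters (TATAAA) from base -175, both on the opposite strand. None of the 5 windows held the IRF letters (GAAANNGAA), those of Serpine2 and Igfbp2 held none of the 5 motifs, and no match overlapped another. Over the 32851 promoter windows that RefSeq gives for mouse genes, 3.94% held the NF-κB letters, 7.81% AP-1, 10.8% C/EBP, 8.56% IRF and 13.6% the TATA box. Because 34 of 49 members (69.4%) had such a window, under the 80% needed, a comparison of CpG or motifs over the whole set was void. The members without one were Il15, Cxcl5, Cxcl16, Ccl2, Ccl4, Ccl5, Ccl7, Plau, Plat, Mmp2, Mmp9, Vcam1, Ereg, Angptl4 and Fn1.

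The number of marked SASP promoters did not separate the groups. The number marked was 4, 5 and 12 of 49 in control 1, 2 and 3, and 6 in each 4xIOP list. Control 3 was the highest, and the 4xIOP lists lay between it and the other control lists. In percent this was 14.3 ± 8.90 in the control group and 12.2 ± 0 in the 4xIOP group (SD, n = 3 each), a difference of -2.04 percentage points that was smaller than the control spread. The sign was not stable: the difference was 3.06 without control 3, 1.36 with equal numbers of peaks, 4.08 within the longer and -5.10 within the shorter fragment class, and over control 3 and 4xIOP 3 alone it was -12.2. Between that last pair the share of all protein-coding promoters fell from 56.9% to 44.6%, and the members' difference beyond it was 0.0625 points. Of all protein-coding promoters, 46.2% to 56.9% were marked in control and 44.6% to 47.4% in 4xIOP lists. Measured against this share of the same list, the members stood at -36.3 ± 4.01 points in control and -33.7 ± 1.42 points in 4xIOP lists, a difference of 2.63 points that was smaller than the control spread. No member was marked in all control lists and no 4xIOP list, or the reverse (0 of 49 both ways). Over all protein-coding genes these shares were 0.36% (79 genes) and 0%.

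**Figure D2:**
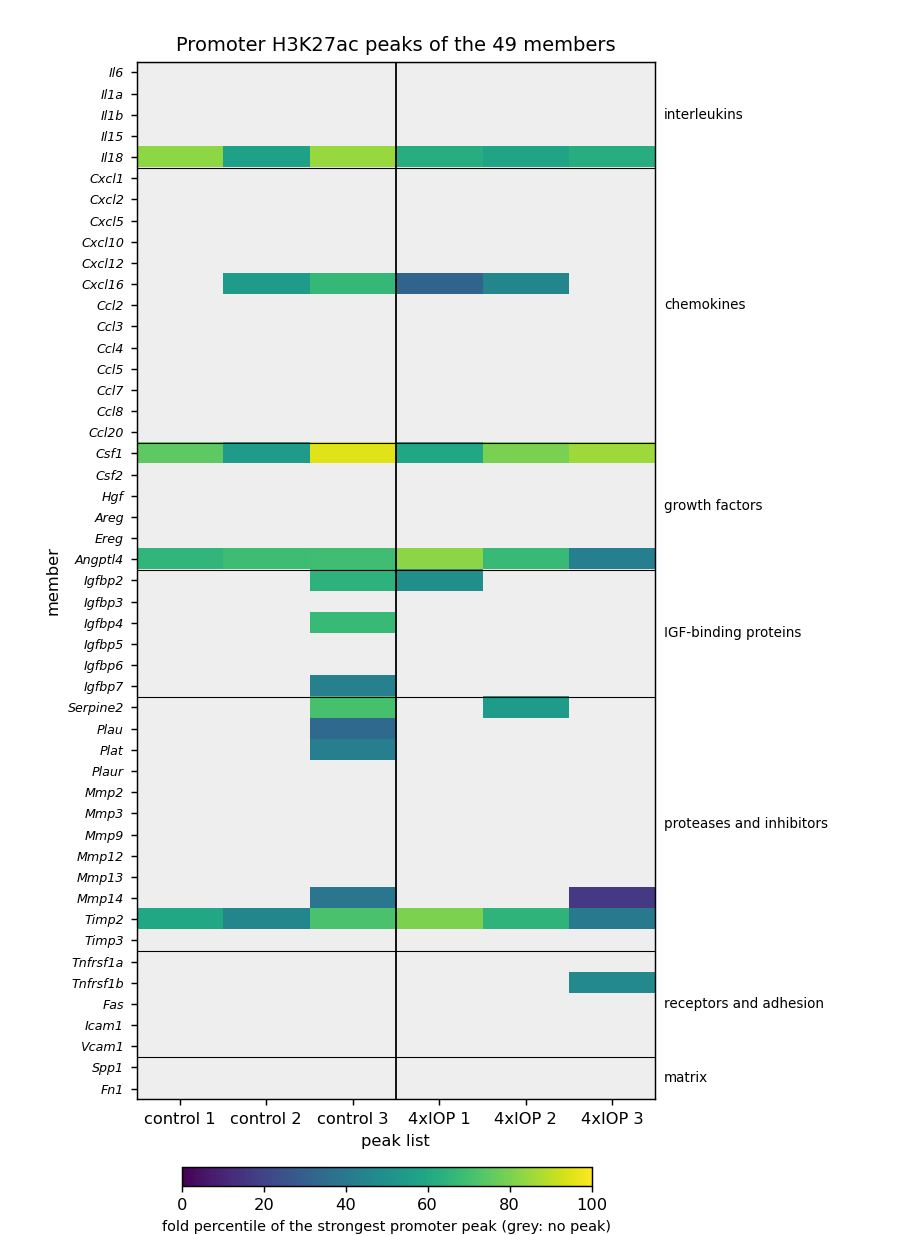
Fold percentile of the strongest promoter peak (colour, 0 to 100 within each list) for the 49 members (rows, by role) in the 6 lists (columns, groups as labelled); grey means no peak. The 4 members with a complete row are Il18, Csf1, Angptl4 and Timp2, and control 3 holds most of the scattered peaks.

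The interleukins were represented by Il18 alone. Il18 is an inflammasome-processed cytokine, and its promoter region (chr9:50554153-50555757, 1605 bp) also covered the promoter of Bco2, a carotenoid-cleaving enzyme, so the signal cannot be assigned to either gene. The height of a peak is given as its fold over the local background and ranked within its list, 100 being the strongest peak. The Il18 fold percentile was 83.1, 57.3 and 84.7 in control 1 to 3 and 62.3, 58.6 and 62.2 in 4xIOP 1 to 3. The 4xIOP values were close together and lay inside the control range. Their mean was 14.0 percentile points lower (control 75.0 ± 15.4, 4xIOP 61.0 ± 2.13, SD, n = 3 each; two-sided exact permutation test, p = 0.4, where 0.1 is the smallest p that 3 against 3 allow). The summit carried 29, 29 and 51 fragments in control and 27, 23 and 23 in 4xIOP lists. These raw numbers did not overlap (exact permutation p = 0.1). Divided by the mean background of each list, which carries the depth, they became 13.2, 8.58 and 20.7 in control and 13.4, 10.8 and 8.96 in 4xIOP lists, which overlapped (exact permutation p = 0.7). Il6, Il1a, Il1b and Il15, the classical interleukins of the SASP, had no promoter peak in any list. At Il1a a region 12.2 kb downstream of its start was present in all 6 lists, but it was the promoter of Ckap2l.

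Of the chemokines, 12 of 13 had no promoter peak in any list. Cxcl1, Cxcl2 and Cxcl5, which attract neutrophils, Cxcl10 and Cxcl12, which attract lymphocytes, and Ccl2, Ccl3, Ccl4, Ccl5, Ccl7, Ccl8 and Ccl20, which attract monocytes and other leukocytes, had no region of any kind within 20 kb of the gene. The exception was Cxcl16, a membrane-anchored chemokine, whose peak lay at chr11:70458859-70459926 and also covered the promoter of Zmynd15. Its fold percentile was 55.3 and 66.6 in control 2 and 3 and 32.1 and 45.9 in 4xIOP 1 and 2, with no peak in control 1 and 4xIOP 3. The summits held 20 and 25 fragments in those control lists and 14 and 16 in those 4xIOP lists. Divided by the mean background of the list they were 5.92 and 10.1 in control and 6.96 and 7.54 in 4xIOP lists. Each group thus had a list with no peak here, and on the last scale the marked lists of the groups overlapped. The fewest fragments at any summit were 9 to 12 in a control list and 9 to 10 in a 4xIOP list, so a missing peak near these counts is no evidence that acetylation was absent.

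Among the growth factors, Csf1 and Angptl4 were marked in every list and Csf2, Hgf, Areg and Ereg in none. Csf1, the growth factor of microglia and macrophages, had the highest mean fold percentile of the members marked in all lists (75.0) and a region that overlapped its start (chr3:107759749-107760718). Its fold percentile was 75.2, 55.4 and 95.0 in control 1 to 3 and 59.4, 79.8 and 85.5 in 4xIOP 1 to 3. The highest and the lowest of these values were both control lists. The means were 75.2 ± 19.8 and 74.9 ± 13.7 (SD, n = 3 each; exact permutation p = 1). Summit fragments over mean background were 12.3, 6.51 and 18.6 in control and 8.45, 8.95 and 17.5 in 4xIOP lists, with a log2 difference of -0.06 (exact permutation p = 0.9). Angptl4, a secreted inhibitor of lipoprotein lipase, was steady in the control group, at fold percentiles of 65.9, 69.0 and 69.2 (chr17:33781043-33782192). In the 4xIOP group it stood at 82.6, 67.5 and 43.2, both above and below all control values. The difference was -3.57 points (control 68.0 ± 1.85, 4xIOP 64.4 ± 19.9, SD, n = 3 each; exact permutation p = 0.8). It was 9.20 within the longer and -25.9 within the shorter fragment class, and 0.04 on the log2 scale of summit fragments over mean background.

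The IGF-binding proteins, carriers that extend or block IGF signalling, were marked almost only in the longest list. Igfbp2, Igfbp4 and Igfbp7 had a promoter peak in control 3, and Igfbp2 also in 4xIOP 1. The Igfbp2 peak ranked at 64.6 in control 3 (21 fragments) and at 49.3 in 4xIOP 1 (14 fragments). Igfbp4 stood at 67.5 with 21 fragments and Igfbp7 at 43.4 with 12 fragments, both in control 3. Igfbp3, Igfbp5 and Igfbp6 were unmarked. Igfbp5 had a pair of regions inside its gene body, 2.73 and 3.12 kb downstream of the start, again in control 3 alone. The number of marked members fell to 4 in control 3 when every list was limited to its 16195 strongest peaks, the length of the shortest list, with 4 in each other control list, 4 in 4xIOP 1 and 2 and 6 in 4xIOP 3.

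Of the 12 proteases and inhibitors, Timp2 was marked in every list. Timp2 inhibits matrix metalloproteinases and takes part in activating pro-MMP2 at the cell surface. Its promoter region (chr11:118354673-118355328) had fold percentiles of 59.9, 45.8 and 71.4 in control 1 to 3 and 80.2, 64.9 and 40.6 in 4xIOP 1 to 3. The 4xIOP lists held both the highest and the lowest value. The means were 59.0 ± 12.8 and 61.9 ± 20.0 (SD, n = 3 each; exact permutation p = 0.9), and the difference of 2.87 became -18.0 within the shorter fragment class. Serpine2, an inhibitor of thrombin and plasminogen activators, was marked in control 3 at a percentile of 70.9 (17 fragments) and in 4xIOP 2 at 55.1 (12 fragments). Mmp14, the membrane-bound activator of pro-MMP2, was marked in control 3 at 39.3 (19 fragments) and in 4xIOP 3 at 16.6 (16 fragments). Plau and Plat, the plasminogen activators, were marked in control 3 alone, at 34.3 with 11 fragments and at 42.6 with 14 fragments. Plaur, the receptor of Plau, Timp3, and the metalloproteinases Mmp2, Mmp3, Mmp9, Mmp12 and Mmp13 had no promoter peak in any list.

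Of the receptors and adhesion molecules, only Tnfrsf1b had a promoter peak, in 4xIOP 3 alone, at a fold percentile of 47.1 with 15 fragments. Tnfrsf1b is the second receptor for tumour necrosis factor. Tnfrsf1a, the death-domain receptor for the same ligand, Fas, and the leukocyte adhesion molecules Icam1 and Vcam1 were unmarked. The matrix proteins Spp1 (osteopontin) and Fn1 (fibronectin) were unmarked as well.

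**Figure D3:**
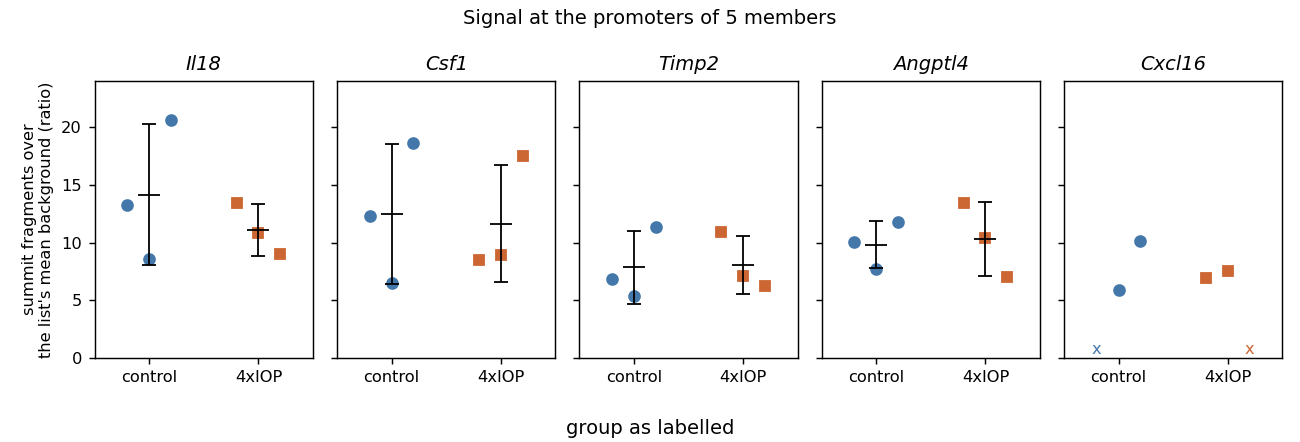
Fragments at the promoter summit divided by the mean background of the list (y axis, ratio) for the 5 members marked in 4 or more lists; points are lists, bars mean ± SD of 3 lists (none drawn for Cxcl16, which lacked a peak in a list of each group), and a cross marks a list with no peak. Control and 4xIOP values overlap at all 5 promoters; the highest value at Il18, 20.7, and at Csf1, 18.6, is control 3.

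Where a peak was present, it sat just inside the gene. The strongest promoter peak was found in 39 combinations of member and list, with its summit downstream of the nearest member TSS in 34 and upstream in 5, between -78 and 680 bp. All upstream summits belonged to Il18. Peaks were 200 to 1143 bp long with a median of 482 bp, had folds of 3.28 to 9.09 and held 11 to 51 fragments at the summit. Of 8669 protein-coding promoters marked in all 6 lists, 0.438% had fold percentiles higher in every 4xIOP list than in every control list and 11.4% lower in every 4xIOP list; among the 4 members neither occurred. Fold percentiles depend on the length of the list, which was shortest in 4xIOP 3.

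Members without a promoter peak were mostly bare across the whole locus. Of the 36, 25 had no region of any kind in any list within the gene body or 20 kb on either side. For 4 of them (Il1a, Igfbp6, Icam1 and Spp1) the locus held only promoters of other genes, and for 7 (Csf2, Igfbp5, Plaur, Mmp2, Mmp9, Timp3 and Tnfrsf1a) it held a region away from any TSS. A peak lay in 15, 16 and 23 member loci in control 1 to 3 and in 16, 17 and 15 in 4xIOP 1 to 3. Control 3 was again highest and the remaining lists were alike. The shares were 36.7 ± 8.90% in control and 32.7 ± 2.04% in 4xIOP lists (SD, n = 3 each), against 64.6 ± 4.84% and 60.7 ± 1.33% of all protein-coding loci. The difference between the groups, -4.08 points, was 1.02 without control 3, 0 with equal numbers of peaks and 3.06 within the longer fragment class.

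The 67 regions found in member loci over the 6 lists were mainly not the members' own promoters. Member promoters made up 14, promoters of other genes 29 and TSS-distal regions 24. All 6 lists shared 4 of the member promoters, 15 of the other promoters and 2 of the distal regions. The other genes' promoters in all 6 lists had a median mean fold percentile of 79.5, against 67.1 for the 4 member promoters. Mrpl44, a mitochondrial ribosomal protein gene in the Serpine2 locus, stood at 98.1 to 99.8, and Rab11b, a vesicle-traffic gene beside Angptl4, at 91.0 to 97.5. The lowest of the 15 were at the Slc12a5 promoter in the Mmp9 locus, with mean fold percentiles of 14.0 and 7.90. A broader window around the members therefore took in more promoters of neighbours than of members.

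**Figure D4:**
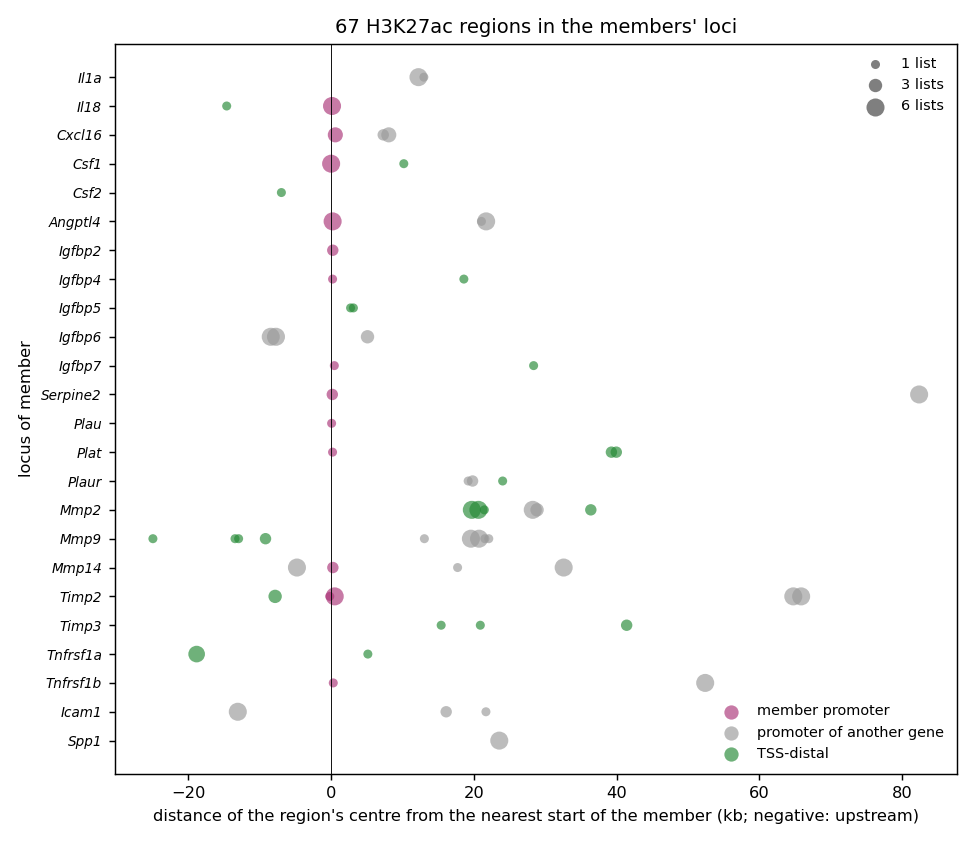
Position of the 67 regions relative to the nearest start of the member in whose locus they lie (x axis, kb, negative upstream; rows, 24 members with a region), with point size for the number of lists and colour for the kind of region. Own promoters sit at 0 kb, and the largest points away from it are mostly promoters of other genes.

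TSS-distal peaks, the candidates for enhancers, formed 24 regions in the member loci. Their number in member loci was 5, 9 and 19 in control 1 to 3 and 3, 7 and 2 in 4xIOP 1 to 3. Control 3 had the most and 4xIOP 3 the fewest, and the groups overlapped. Per Mb of member loci (2.76 Mb in all) this was 3.98 ± 2.61 in control and 1.45 ± 0.957 in 4xIOP lists (SD, n = 3 each), a difference of -2.53. In all protein-coding loci it was 5.71 ± 3.38 and 3.38 ± 1.17, a difference of -2.33. The difference was -1.09 without control 3, -0.36 with equal numbers of peaks and 0 within the longer fragment class. Of the 24 distal regions 15 were found in 1 list (62.5%), against 51.3% of all distal regions, and 10 lay in the gene body of a member, 7 in that of another gene and 7 between genes.

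The distal regions present in most lists lay at Mmp2, the gelatinase that degrades type IV collagen of basement membranes. They were neighbours in its gene body, overlapped no annotated exon, and were present in all 6 lists (chr8:92846625-92847376 and chr8:92847557-92848286, 19.7 and 20.6 kb downstream of the start), although the promoter of Mmp2 had no peak. Around the median summit of the first, the 300 bases chr8:92846831-92847130 (plus strand, GRCm38, CpG in capitals) held 4 CpG.
Mmp2 distal: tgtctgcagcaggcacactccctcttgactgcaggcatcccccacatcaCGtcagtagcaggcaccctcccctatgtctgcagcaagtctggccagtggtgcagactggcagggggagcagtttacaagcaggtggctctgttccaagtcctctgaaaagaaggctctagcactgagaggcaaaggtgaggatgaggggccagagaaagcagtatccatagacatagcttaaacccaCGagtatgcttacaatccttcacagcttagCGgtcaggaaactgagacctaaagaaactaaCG
The first region held 62, 63 and 85 fragments at the summit in control 1 to 3 and 44, 50 and 45 in 4xIOP 1 to 3. These are high counts, yet the fold percentiles were low, at 12.5, 19.9 and 27.9 in control and 7.80, 9.23 and 7.96 in 4xIOP lists. Raw counts carry the depth of the list and percentiles its length, and neither overlapped between the groups. The folds themselves overlapped, at 2.85, 3.00 and 3.26 in control and 2.69, 2.72 and 2.93 in 4xIOP lists. The local background that the caller expected there was 5.74 to 10.3 times the mean background of the list, against at most 2.68 times at any member promoter peak. Whether copy number or mapping contributes to this background was not tested. The second region stood at 7.55, 6.18 and 17.9 in control and 10.6, 18.1 and 17.3 in 4xIOP lists.

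The remaining distal regions of the most lists were single. In the Tnfrsf1a locus, chr6:125330602-125331176 lay in Scnn1a, a subunit gene of the epithelial sodium channel, and covered 266 bp of its exons. It stood at 50.3, 81.2 and 92.6 in control 1 to 3 and at 96.9 and 98.3 in 4xIOP 1 and 2, and had no peak in 4xIOP 3. Its summits held 17, 28 and 40 fragments in control 1 to 3 and 33 and 34 in 4xIOP 1 and 2. The list without it had the fewest peaks of all, and whether this bears on the missing peak was not tested. A region 7.84 kb upstream of Timp2 (chr11:118363069-118363625) was called in all control lists, with 15, 14 and 15 fragments, and in no 4xIOP list. It was the only one of 24 with that pattern, shown by 1.08% of all 19172 distal regions, and 0.0104% showed the reverse, none of them in a member locus. Its fold percentiles were 71.3, 24.2 and 52.8 in control 1 to 3. The fewest fragments at any summit were 9 to 12 in a control list and 9 to 10 in a 4xIOP list. Regions in Timp3 (chr10:86341602-86341931, 41.4 kb downstream of its start, in the overlapping bodies of Timp3 and Syn3) and in Lpcat2 near Mmp2 (chr8:92863375-92863955) were each in 2 lists. A region at Mmp9 and a pair at Plat were also in 2 lists, control 2 and control 3, and had lower mean fold percentiles, which broke the tie. The Timp3 region had 15 fragments in control 1 and 18 in control 3, and the Lpcat2 region 37 in control 3 and 21 in 4xIOP 2.

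A test of peak height across all regions present in every list called none at SASP loci. Folds were ranked within each list over the 10529 regions in all 6 lists, turned into normal scores and compared with limma, with p-values adjusted over all regions by Benjamini-Hochberg. No region was called higher (0%) or lower (0%) in 4xIOP, among the 21 in member loci or elsewhere, and the smallest adjusted p was 0.9999; at an unadjusted p under 0.05 there were 334 regions, none of them in a member locus. Differences at the 21 ranged from -0.53 to 0.54 score units with standard errors of 0.29 to 0.45. Of these, 14 were above and 7 below 0, and their median was 0.08 against 0.01 over all regions. Among the alternatives on these scores the median was lowest without 4xIOP 1 (-0.02) and highest with a term for fragment class (0.19). On log2 summit fragments over mean background 10 were above and 11 below 0. In control 1 to 3 the second Mmp2 region scored -1.93, -2.08 and -1.82, and in 4xIOP 1 to 3 it scored -1.62, -1.37 and -1.22, all higher. It had the largest difference of the 21 (0.54, SE 0.30, limma adjusted p = 0.9999), and the first Mmp2 region, beside it, differed by -0.21. The next differences upward were at the Mrpl44 promoter in the Serpine2 locus (0.44, SE 0.31) and at the Timp2 promoter (0.41, SE 0.32). Downward, the leading ones were the promoters of Ckap2l beside Il1a (-0.53, SE 0.32), Vps13d beside Tnfrsf1b (-0.47, SE 0.31) and Mrpl52 beside Mmp14 (-0.30, SE 0.33). Scores did not overlap between the groups at 1 of the 21 upward, the second Mmp2 region, and at 1 downward, Vps13d. Over all regions 4.31% did so upward and 4.05% downward, close to the members' 1 in 21.

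The receptors and the regulators of these factors were counted in the same way, beside 44.6% to 56.9% of protein-coding promoters marked per list, and given no test. The share was 17.2% to 31.0% for the receptors and 63.3% to 76.7% for the regulators. Of 29 receptor genes 6, 5 and 9 were marked in control 1 to 3 and 6 in each 4xIOP list. Those marked in all 6 lists were Il6st, the signalling chain shared by interleukin 6 cytokines, Igf1r and Igf2r, which bind IGFs, and the integrin subunits Itgav and Itgb1. The chemokine receptors Cxcr2, Cxcr3, Cxcr4, Cxcr6, Ackr3, Ccr1, Ccr2 and Ccr6 were unmarked in every list, like most of their ligands. Of 30 regulators of senescence and of the secretory programme 23, 22 and 23 were marked in control and 22, 19 and 23 in 4xIOP lists, 18 of them in all 6. These included Rela and Nfkb1, subunits of NF-κB, its inhibitor Nfkbia, the AP-1 genes Jun, Junb and Fos, and Stat3. Cebpb, which encodes C/EBPβ, was marked in 5 lists, and Cdkn1a, which encodes the cell-cycle inhibitor p21, in the same 5, all but 4xIOP 2. Cdkn2a and Cdkn2b, which encode the inhibitors p16 and p15, were unmarked in every list, as were Gata4, Tgfb1, Notch1, Cgas and Tmem173.

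**Figure D5:**
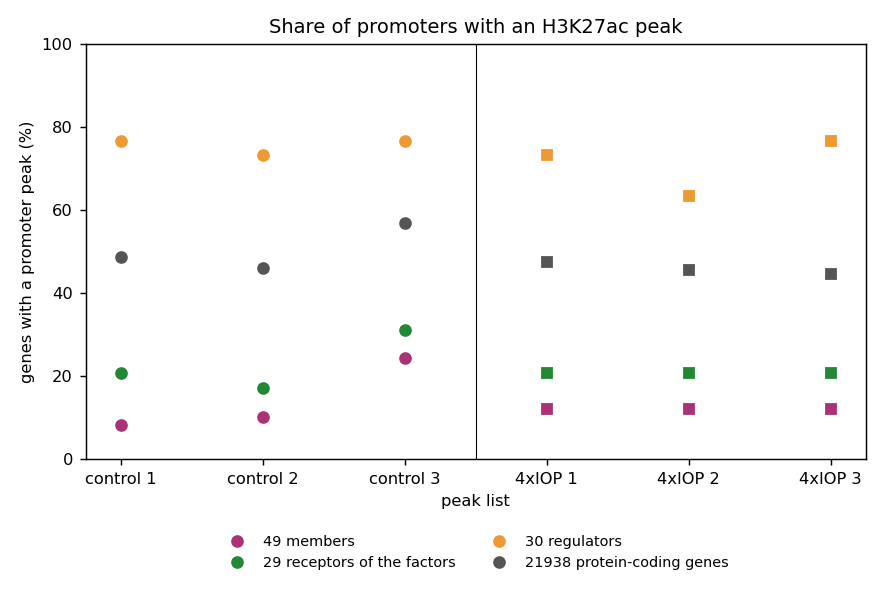
Share of promoters with a peak (y axis, percent) in each list (x axis, groups as labelled) for the 49 members, 29 receptors, 30 regulators and 21938 protein-coding genes. In every list the members are lowest (8.16% to 24.5%) and the regulators highest, and control 3 is the highest list for members, receptors and protein-coding genes.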

How the data were processed

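H3K27ac ChIP-seq (antibody ab4729) was performed on 3 control and 3 4xIOP retinas. The submitters' processing notes name mm10, STAR 2.7.8a, MACS2, HOMER, edgeR and bedtools 2.29.2 without their roles; the calling threshold and any input control are not given in the sources used here. The authors deposited 1 peak list per sample with a fold over local background (ratio) and −log10 p-values and −log10 q-values. Reads were not analysed, so depth is known only through the peaks: the genome mean background was 87.4 to 173 fragments per 10 kb. Whole summit fragments were recovered from fold and p (at least 99.99% of peaks within 0.001 on the −log10 scale). Regions were merged over lists and annotated with GENCODE vM21 basic genes. Peaks ended within the GRCm38 chromosomes. The labels tie no control eye to a 4xIOP eye and do not say that replicates were separate mice, so p-values measure the spread between these samples. Exact permutation tests (SciPy 1.17.1) and limma 3.58.1 in R 4.3.3 (Benjamini-Hochberg 0.05) were used. The recovery of fragments, the overlap of intervals and limma were checked on simulated data. Shares over the members were not tested.

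The 49 members, the lists of receptors, regulators and markers and the motifs were chosen with earlier results of these data known. Named by rule were all members, members with a promoter peak, the 6 distal regions in most lists (ties by mean fold percentile) and the 3 limma regions per direction with the smallest p. Sequences came from RefSeq by symbol (GRCm38.p6) or from that genome. Alternatives were −log10 q of at least 5, equal peak numbers (16195), a 1 kb promoter, a 5 kb flank, a summit in the promoter, each list left out, control 3 and 4xIOP 3 alone, the 2 fragment classes, other scales and a replicate block. A few genes of the receptor, regulator and marker lists are not reported here by name.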

Additional observations from a re-analysis of the deposited data

How the results depend on the processing

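Over control 3 and 4xIOP 3 alone, where name and label agree, the 4xIOP minus control difference was -12.2 points for member promoters marked, -16.3 points for member loci marked and -6.15 distal peaks per Mb. Over all protein-coding genes promoters fell from 56.9% to 44.6%, loci from 70.0% to 59.1% and distal peaks from 9.60 to 2.08 per Mb, and the members' promoter difference beyond all genes was 0.0625. In this pair 8 members were marked in a single one of the 2 lists (Tnfrsf1b in 4xIOP 3, and Igfbp2, Igfbp4, Igfbp7, Cxcl16, Plau, Plat and Serpine2 in control 3), 14.3% in control 3 alone and 2.04% in 4xIOP 3 alone, against 12.5% and 0.232% of protein-coding genes. Within the longer fragment class the difference was 6.14 points for member promoters beyond all protein-coding genes, 3.06 points for loci and 0 for distal peaks, and 1 member, Cxcl16, was marked in all 4xIOP and no control lists (0.848% of protein-coding genes were). Within the shorter class there were 2, Cxcl16 in all control and no 4xIOP lists (3.77% of protein-coding genes) and Tnfrsf1b in 4xIOP 3 alone (0.16%). Equal peak numbers gave -0.362 distal peaks per Mb. Leaving out 1 list gave -5.10 to 3.06 points for promoters and 0.546 (without control 1) to 4.55 (without control 3) beyond all genes. It gave -7.14 to 1.02 for loci and -3.62 to -1.09 for distal peaks. In each case 0 members were marked in every list of a group and in no list of the other. The sign turned without control 3 and within the longer class for promoters (4.08, against -5.10 in the shorter) and loci, and with equal peak numbers for promoters (1.36). With equal peak numbers the loci differed by 0.

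Of the differences in fold percentile at single promoters, that of Il18 kept its sign, between -22.9 (without control 2) and -9.15 (without control 3) with 1 list left out. Csf1 turned to 10.3 in the shorter class and ranged from -10.2 to 9.61 with 1 list left out, turning without control 3 or 4xIOP 1. Timp2 turned to -18.0 in the shorter class and ranged from -6.30 to 13.5, turning without control 2 or 4xIOP 1. Angptl4 turned to 9.20 in the longer class and to 0.0357 on the log2 scale of summit fragments over mean background, and ranged from -12.7 to 7.06, turning without 4xIOP 3. With 3 lists per group the exact permutation test cannot go below p = 0.1, so none could pass, and the cause was not tested. limma called 0 member regions under every alternative.

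Same-numbered lists had deviations correlated at -0.021, -0.057 and -0.146, which cannot decide whether replicate numbers pair eyes of the same mouse. The replicate block left the promoter difference at -2.04 and limma calls among member regions at 0. It could not be formed for counts of members marked in every list of a group and in no list of the other. No list called a peak with fewer than 9 fragments at its summit.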
